A study of Mus musculus with 32 samples.

Results

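Colonic and ileal progeny of the same kind of grafted monocyte were compared at day 8 after transfer. The members were chosen by sample title, as the 3 libraries of colonic MPs and the 4 libraries of ileal MPs of day 8, which made 7 of the 32 samples of the series. A further colonic library of day 8, from an earlier experiment for which no ileal partner of that day was analysed here, was left out of the test and is given beside it as the extra colonic library. The question was how far cells of one origin take on different profiles in neighbouring stretches of gut.

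All recipients were C57BL/6J mice irradiated at 7 to 10 weeks of age and given bone marrow with the Itgax-DTR/GFP transgene (line 57Lan, CD11c-DTR), in which CD11c regulatory sequence drives a diphtheria toxin receptor. Toxin was injected before the transfer and repeatedly after it in both groups, to deplete CD11c+ cells of the first marrow, while epithelium and stroma remained those of the recipient. The graft consisted of CD117- CD11b+ CD115+ Ly6C+ GFPint monocytes from the bone marrow of Cx3cr1 GFP/+ donors. Graft-derived cells were recognised by the donor allotype CD45.1 and by the GFP reporter of Cx3cr1, per the study's methods, while the labels give every day 8 library the gate DAPI-CD45+CD11b+CD64+Ly6C-MHCII+. Epithelium was shaken off in EDTA before digestion, and collagenase then acted for 40 min on colon and for 20 min on ileum, so that segment and digestion time cannot be told apart. Titles placed colonic replicate 1 and ileal replicates 1 and 3 in experiment 2, and colonic replicates 2 and 3 with ileal replicates 2 and 4 in experiment 3. The date in the title of ileal replicate 2 is a year before that of its partners and was read as a slip, so values within an experiment or with a block rest on that reading. The sources used here do not say whether libraries came from separate animals, so p-values measure the spread between these libraries, which may be technical.

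Monocytes that enter the gut wall lose Ly6C, gain MHC class II and become CX3CR1+ macrophages that take up dying cells and keep the mucosa quiet towards bacteria. The segments around them differ. Ileal epithelium absorbs lipid and bile acids and has Paneth cells, which secrete alpha-defensins and lysozyme at the crypt base, whereas colonic epithelium has no Paneth cells under healthy conditions and takes up sodium and water behind a thick mucus layer. Hox genes, which lie in 4 clusters, keep a record of position along the body axis in epithelium and mesenchyme, the higher paralogue numbers marking the more posterior parts.

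Libraries held 1505235 to 5228664 reads on genes, and the extra colonic library held 889451. Values below are normalised reads, which are reads per 10000000 mapped reads of the library. Fold changes are log2 of colon over ileum from edgeR's quasi-likelihood test with trimmed-mean (TMM) scaling, in which the 7 libraries shared 1 estimate of spread with 18 libraries of other groups, and adjusted p is Benjamini-Hochberg over 11842 genes.

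The libraries of both segments differed first in how much macrophage RNA they carried beside RNA of other cells. A list of 15 leukocyte genes, such as Ptprc and Tyrobp, is not particular to macrophages. Summed over it, colonic replicates 1 to 3 had 9708, 4903 and 3190 normalised reads and ileal replicates 1 to 4 had 31660, 39560, 20860 and 8062. Ileal replicate 4 thus lay below colonic replicate 1. The 25 macrophage identity genes, such as Csf1r and C1qa, summed to 76160, 39580 and 27640 in colon and to 199900, 239800, 146700 and 59700 in ileum. The 18 genes of intestinal epithelium, among them Epcam and Krt8, went the other way, with 187500, 194600 and 175200 in colon and 29920, 43030, 59160 and 38510 in ileum. The 3 libraries of grafted monocytes summed to between 38.8 and 59.0 for the same epithelial genes. The extra colonic library had 37980 normalised reads of the leukocyte genes and 88860 of the epithelial ones. It thus stood nearer to the ileal libraries on the first list and between the groups on the second. For the macrophage identity genes it had 346100 and for 10 MHC class II genes 246800, each above every ileal library. In sorted bulk samples fewer cells of a type and less RNA per cell cannot be told apart, and the part of these sums in each result below was tested only by the scalings named beside it.

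**Figure D1:**
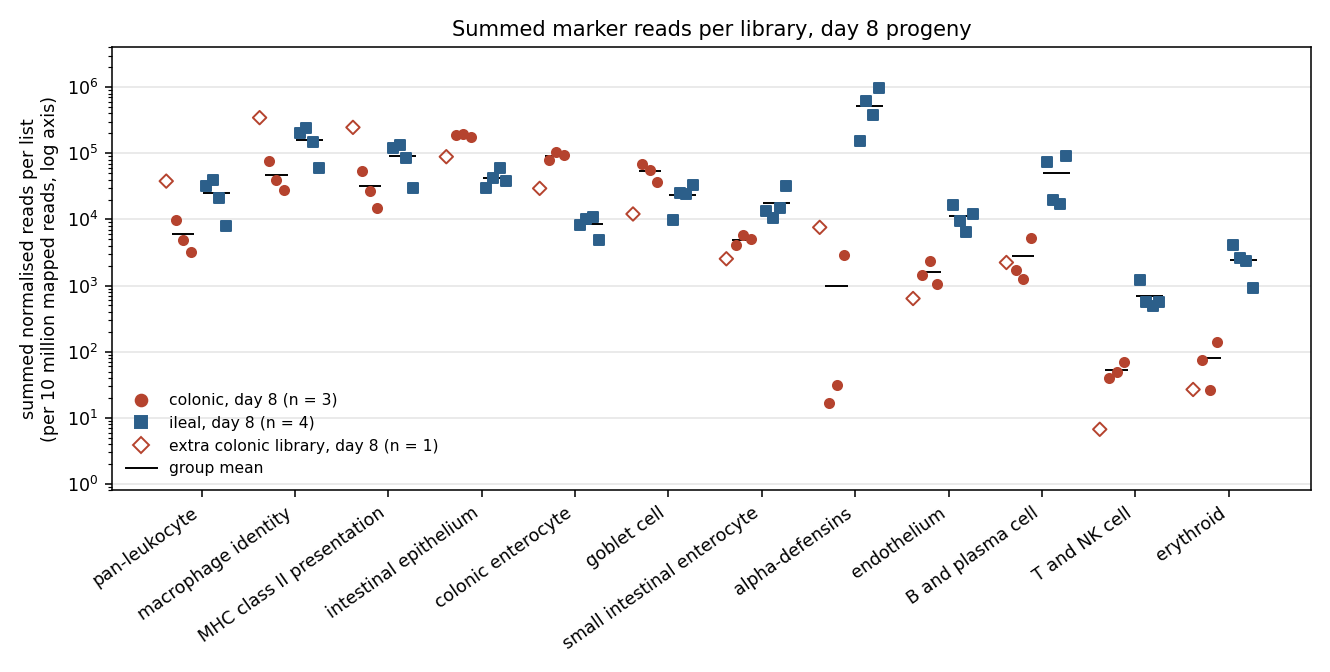
Summed normalised reads (per 10000000 mapped reads, log axis) of 12 gene lists in each library of day 8. Filled circles are the 3 colonic libraries, squares the 4 ileal libraries, open diamonds the extra colonic library, and black bars group means. Leukocyte and macrophage lists overlap between segments, with higher means in ileum. The epithelial, colonic enterocyte and goblet cell lists are higher in each of the 3 colonic libraries. The small intestinal, alpha-defensin, endothelial, lymphoid and erythroid lists are higher in every ileal one. The extra colonic library is inside the ileal range for the goblet cell list (12100) and above it for the macrophage list (346100).

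At day 8, 1981 genes were higher in colon, 16.7% of those tested, and 2163 were lower, 18.3%, which is 35% in either direction. The libraries of the segments did not overlap for 1967 of the 1981 and for 1205 of the 2163. In all, 28.3% of genes tested lay above and 11% below in every colonic library (39.3% in either direction). Overlap was judged on normalised reads, whereas the calls used TMM scaling. With scaling to mapped totals the test gave 2803 genes higher and 1428 lower. Within experiment 3 the same test gave 1358 genes higher (11.5%) and 1331 lower (11.2%). Within experiment 2, with 1 colonic and 2 ileal libraries, edgeR called 0 genes in either direction, with 2196 at an unadjusted p under 0.05.

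Because the balance of leukocyte and epithelial RNA differed, the contrast was also computed with libraries scaled to the leukocyte genes or to the epithelial genes. Both were chosen after the data were seen. The leukocyte genes can also count lymphoid cells, and the B and plasma cell sum averaged 2772 in colon and 50340 in ileum. Per leukocyte read, 9125 genes were higher in colon (77.1%) and 127 lower (1.07%), and all 127 were among the 2163. Per epithelial read, 184 were higher (1.55%) and 9623 lower (81.3%), and all 184 were among the 1981. Each scaling shifted most genes in 1 direction, so that these overlaps follow from the shift and are no separate support. The direction of most genes between the extremes therefore depended on the reference chosen. The median of all genes moved from -0.05 to 2.23 with leukocyte scaling and to -1.95 with epithelial scaling, on the log2 scale. These shares and medians over all genes are the background for every list given with either scaling below.

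**Figure D2:**
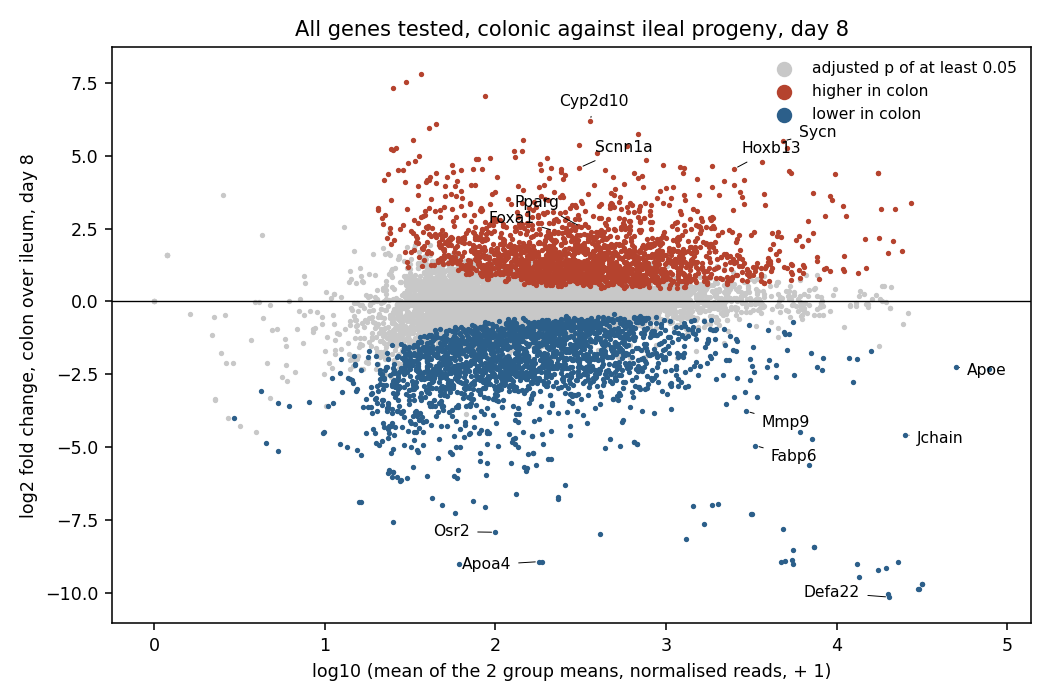
Each point is 1 of 11842 genes, placed by its mean level in the 2 groups (log10 of normalised reads + 1) and by its log2 fold change, colon over ileum. Red genes passed the test as higher in colon (1981) and blue genes as lower (2163), and the alpha-defensins form the lowest group, near a log2 fold change of -10 for Defa22.

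Pparg and Foxa1 were higher in colon and Mmp9 was lower. Pparg encodes a lipid-sensing nuclear receptor, used by colonocytes and by macrophages alike, and lies on chromosome 6 (115311162 to 115440419, plus strand, mm9). It had 395, 579 and 682 normalised reads in colonic replicates 1 to 3 and 48.8, 115, 117 and 37.4 in ileal replicates 1 to 4. Every colonic library was above every ileal one, with a mean of 552 ± 146 (SD, n = 3) against 79.5 ± 42.3 (n = 4). The log2 fold change was 2.56 ± 0.45 (SE), with an edgeR adjusted p of 0.000341. With epithelial scaling it was 0.72, with an adjusted p of 0.116, and with leukocyte scaling it was 5.11. Grafted monocytes averaged 29.7 normalised reads of Pparg.

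Foxa1, a pioneer factor of endodermal epithelium, lies on chromosome 12 (58641619 to 58647108, minus strand, mm9). It had 358, 407 and 379 normalised reads in colon and 56.9, 70.8, 77.0 and 30.6 in ileum, again with no overlap. Its log2 fold change was 2.43 ± 0.38 (edgeR adjusted p = 0.000212), and with epithelial scaling it was 0.54, with an adjusted p of 0.276. All 3 libraries of grafted monocytes were at 0 for Foxa1. The related Foxa2 was higher as well, by 2.65 (adjusted p = 0.00191), and so was Foxd2 by 3.64 (adjusted p = 0.000383). Of 15 forkhead genes tested 5 were higher and 2 lower, against 13 and 0 with leukocyte scaling and 1 and 9 with epithelial scaling. Foxd2 kept its call with epithelial scaling, at 1.70 (adjusted p = 0.00714), while Foxa2 did not, at 0.80 (adjusted p = 0.263).

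Mmp9, a gelatinase that myeloid cells secrete, lay on the other side. It is on chromosome 2 (164773719 to 164781349, plus strand, mm9). Colonic replicates 1 to 3 had 648, 553 and 198 normalised reads and ileal replicates 1 to 4 had 5942, 10380, 4484 and 969, so the groups did not overlap although each spanned a wide range. The log2 fold change was -3.76 ± 0.90 (edgeR adjusted p = 0.00311). Scaled to the leukocyte genes it was -1.29, with an adjusted p of 0.0451. The extra colonic library had 4717 normalised reads of Mmp9, inside the ileal range, and with that library added the difference was -1.71 with an adjusted p of 0.17.

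Among genes past the threshold with a mean of at least 200 in colon, no overlap of libraries and the same sign in experiments 2 and 3, the 15 with the largest rise in colon were Cyp2d10, Tnni1, 5033404E19Rik, Sycn, Fxyd4, Anxa8, Tgm3, Syt8, Cyp2f2, Gm15401, Fut2, Insl5, Cyp2d34, Wfdc2 and Best2, which were at least 4.70 higher on the log2 scale. Means in grafted monocytes reached no more than 8.01 normalised reads for any of them. The extra colonic library lay within the ileal range for Fxyd4 (0), Insl5 (0) and Best2 (13.4), and above that range for the other genes. All 15 stayed higher with epithelial scaling, but they had been picked as the largest rises, so this is no separate support. Cyp2d10, a cytochrome P450 of the 2D family, had 561, 780 and 789 normalised reads in colon against 5.42, 27.0, 0 and 0 in ileum (log2 fold change 6.18 ± 0.96, edgeR adjusted p = 0.000189). Sycn, known from the secretory granules of pancreas, had 12130, 10370 and 6136 against 228, 206, 234 and 40.8. Tgm3, a transglutaminase that cross-links proteins in surface epithelia, had 12880, 10090 and 6961 against 409, 388, 104 and 0. Wfdc2, a secreted protease inhibitor, had 6713, 5960 and 8736 against 222, 317, 234 and 112.

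Genes of salt and water movement were among the most uneven. Of 21 tested, 16 were higher and 2 lower in colon, with a median log2 fold change of 2.23. Scnn1a, the alpha subunit of the epithelial sodium channel, had 544, 681 and 576 normalised reads in colon and 19.0, 33.7, 26.8 and 3.40 in ileum (log2 fold change 4.58 ± 0.59). Best2, a chloride and bicarbonate channel of colonic goblet cells, had 355, 334 and 365 against 19.0, 13.5, 6.69 and 3.40. With epithelial scaling 8 of the 21 remained higher, and Scnn1a and Best2 were among them at 2.71 and 2.76. Slc26a6, an anion exchanger, was lower in colon at -3.79 (3.38, 13.1 and 4.68 normalised reads against 103, 118, 80.3 and 30.6).

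All 17 tested genes of a colonic enterocyte list were higher in colon, with a median of 3.55, and 13 stayed higher with epithelial scaling. They were the carbonic anhydrase Car1 (log2 fold change 3.69), the water channel Aqp8 (3.93), the chloride exchanger Slc26a3 (3.54) and Lypd8, which keeps flagellated bacteria off the epithelium (3.37), among others. Fxyd4, a regulator of the sodium pump, had 861, 389 and 562 normalised reads in colon against 10.8, 10.1, 26.8 and 0 in ileum, and stayed higher with epithelial scaling at 3.58. Lypd8 was the most abundant of these, with 40290, 55710 and 55200 normalised reads in colon and 3641, 3772, 5622 and 2957 in ileum. Of 14 enzymes of mucin and blood group glycosylation 8 were higher and none lower, and 5 were higher without colonic replicate 3. With epithelial scaling 3 of the 14 were higher and 5 lower. B3gnt7, an N-acetylglucosaminyltransferase, had 4086, 3802 and 2932 against 97.6, 158, 174 and 54.4 (4.63 ± 0.67), and Fut2, the secretor fucosyltransferase, had 253, 357 and 147 against 0, 3.37, 23.4 and 0.

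Of 12 goblet cell genes 7 were higher in colon and none lower, and 4 without colonic replicate 2, ileal replicate 1 or ileal replicate 4. Muc2, the gel-forming mucin, had 11680, 11800 and 5855 normalised reads against 914, 2498, 2480 and 1482. Tff3, the goblet cell trefoil peptide, overlapped at 13440, 5984 and 3672 against 2123, 6176, 9434 and 14220, with a log2 fold change of -0.48 (adjusted p = 0.586). With epithelial scaling none of the 12 stayed higher and 3 were lower. Insl5, a hormone of distal enteroendocrine cells, had 503, 556 and 117 against 8.13, 13.5, 20.1 and 0, and Pyy, the satiety peptide of the same cells, had 1165, 1234 and 631 against 35.2, 37.1, 43.5 and 218. Of 7 tested enteroendocrine genes 3 were higher and none lower. Without 1 library the number higher ran from 2 to 4, with 2 lower without ileal replicate 1 and 1 lower without ileal replicate 3, and with epithelial scaling 1 was higher and 2 were lower.

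Several metabolic families were higher in colon under TMM scaling. Of 82 subunits of oxidative phosphorylation 43 were higher and 1 lower, with a median of 0.72, and with epithelial scaling none was higher and 59 were lower. Of 31 cytochrome P450 genes 18 were higher and 4 lower, and of 11 aldo-keto reductases 6 were higher and none lower. With epithelial scaling 10 of the P450 genes were higher and 11 lower, and 0 of the aldo-keto reductases were higher and 5 lower. UDP-glucuronosyltransferases gave 9 of 11 higher and none with epithelial scaling, but the Ugt1a entries share their last exons and hence the same 3′ reads, so that they do not count as separate genes. Of the 79 cytosolic ribosomal protein genes edgeR called 0 under TMM, with 2 at an unadjusted p under 0.05 and a median of -0.05, and DESeq2 called 2. Leukocyte scaling gave 77 higher, epithelial scaling 78 lower and scaling to mapped totals 7 higher.

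On the ileal side Paneth cell products led. By the same rule, with the mean of at least 200 in ileum, the 15 largest falls in colon were Defa22, Defa21, Defa33, Defa32, Defa20, Defa2, Gm7861, Gm7849, Defa6, Gm14851, Defa30, Gm15292, Defa24, Apoa4 and Defa29, of which 14 lie on chromosome 8 in the defensin region and 1, Apoa4, on chromosome 9. All 21 alpha-defensins tested were lower in colon, with a median of -8.92, and all 21 remained so with leukocyte scaling, with a median of -6.70. Defa22 had 0, 2.61 and 123 normalised reads in colonic replicates 1 to 3 and 12070, 32660, 24680 and 93840 in ileal replicates 1 to 4 (log2 fold change -10.14 ± 1.85, edgeR adjusted p = 0.000447). Colonic replicate 3 held nearly all the colonic reads, as it did for the family, whose sums were 16.9, 31.3 and 2886 in colon and 152700, 607900, 374000 and 955900 in ileum. The extra colonic library had 7596. Copies of this family cannot be separated by 3′ reads, 10 of its 27 entries overlap another gene on the same strand (Defa2 with Defa20, Defa32 with Defa33, Defa6 with Defa24, for example), and sums count shared reads more than once. Gm7849 and Gm7861, which are not among the 27, overlap each other.

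How alike the copies are can be read from the 250 bases before the start of each gene, taken from RefSeq (GRCm38.p6, not the build of the counts), where 18 of the 30 largest changes had an entry. The lines below show Defa22, Defa2 and Defa30 for the ileal side and Cyp2d10 and Foxa1 for the colonic side, each 5′ to 3′ on the strand of the gene. Capitals mark a match to TATAAA, the letters of a TATA box, or to TGTTTAC, the letters that forkhead factors bind, each searched on both strands (as TTTATA and GTAAACA on the other).
Defa22, chr8:21162027-21162276, plus strand: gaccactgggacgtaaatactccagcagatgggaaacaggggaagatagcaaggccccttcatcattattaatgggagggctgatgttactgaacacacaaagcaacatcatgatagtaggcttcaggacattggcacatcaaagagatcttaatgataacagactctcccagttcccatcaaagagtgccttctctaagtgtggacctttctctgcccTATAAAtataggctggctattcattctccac
Defa2, chr8:21378267-21378516, plus strand: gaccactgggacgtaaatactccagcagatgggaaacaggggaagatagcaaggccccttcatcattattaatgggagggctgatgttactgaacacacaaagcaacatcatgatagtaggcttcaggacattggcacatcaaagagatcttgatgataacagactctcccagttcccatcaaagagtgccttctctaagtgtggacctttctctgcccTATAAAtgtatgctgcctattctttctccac
Defa30, chr8:21134400-21134649, plus strand: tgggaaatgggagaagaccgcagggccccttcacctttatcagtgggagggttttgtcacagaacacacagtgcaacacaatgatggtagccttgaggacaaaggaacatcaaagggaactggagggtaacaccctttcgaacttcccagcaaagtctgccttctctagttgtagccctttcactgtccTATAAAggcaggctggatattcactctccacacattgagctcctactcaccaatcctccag
Cyp2d10, chr15:82407195-82407444, minus strand: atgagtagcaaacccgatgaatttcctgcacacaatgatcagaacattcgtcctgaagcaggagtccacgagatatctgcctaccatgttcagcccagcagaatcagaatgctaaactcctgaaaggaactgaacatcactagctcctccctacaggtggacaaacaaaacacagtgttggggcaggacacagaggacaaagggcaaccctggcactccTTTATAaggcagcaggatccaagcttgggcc
Foxa1, chr12:57546112-57546361, minus strand: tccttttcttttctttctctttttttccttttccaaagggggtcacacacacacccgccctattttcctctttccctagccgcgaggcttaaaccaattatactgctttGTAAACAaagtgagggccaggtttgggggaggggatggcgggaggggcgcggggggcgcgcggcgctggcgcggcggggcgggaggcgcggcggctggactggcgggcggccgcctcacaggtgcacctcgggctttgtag
The windows of Defa22 and Defa21 were identical, as were those of Defa2 and Defa20, and the pairs differed at 5 of 250 bases. Defa30 was more distant, with 67 differing bases of 220 when laid against Defa22. TATAAA was present in all 11 alpha-defensin windows found for the 21 genes, which are copies of each other, against 12.4% of 32851 windows of all genes. Among 17 windows of the 15 leading colonic genes TGTTTAC was present in 3 and TATAAA in 4, against 3.17% and 12.4% of all windows. These 17 windows belong to 11 genes, so that some genes count more than once, and Foxa1 is not among them.

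Of 12 genes on a wider list of Paneth cell and antimicrobial genes, which holds 4 of the defensins, 10 were lower in colon and 2 higher. Those higher were Nupr1 and Reg4, and Reg4 (2.16, adjusted p = 0.0179) lost its call without colonic replicate 2, ileal replicate 1 or ileal replicate 2. Neither stayed higher with epithelial scaling. Lyz1, the lysozyme of Paneth cells, had 1057, 553 and 440 normalised reads in colon against 10060, 13350, 9417 and 21580 (log2 fold change -4.71 ± 0.76), though grafted monocytes also carried it, at a mean of 26680, and its near-identical neighbour Lyz2 makes the split of reads between both uncertain. Itln1, a lectin of the same granules, had 20.3, 52.2 and 45.6 against 1274, 5161, 3979 and 5509. Mmp7, the protease that activates the defensins, had 0, 0 and 10.5 against 130, 462, 391 and 863. Reg3g, a lectin that kills Gram-positive bacteria, had 27.0, 329 and 536 against 5969, 37260, 6402 and 4211, with ileal replicate 2 far above the others. Lyz1, Itln1, Mmp7 and Reg3g stayed lower with leukocyte scaling, and 8 of the 12 did in all.

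Genes of ileal absorption formed the next group. Of 20 small intestinal enterocyte genes 14 were lower and 2 higher in colon. Leukocyte scaling gave 6 lower and 6 higher, and epithelial scaling 18 lower and 0 higher. Fabp6, the ileal bile acid binding protein, had 230, 219 and 413 normalised reads in colon and 1787, 4955, 2051 and 16790 in ileum (log2 fold change -4.94 ± 1.27). Slc51a, a subunit of the basolateral bile acid exporter, had 6.75, 10.4 and 11.7 against 184, 199, 241 and 418 (-5.00 ± 0.56), and it was lower with either scaling (-3.07 and -6.82). Apoa1, a carrier of absorbed lipid, had 0, 0 and 25.8 against 1437, 384, 3350 and 5258. For Apoa4, of the same kind, 1 read was counted in the colonic libraries together and 453 in the ileal ones, a ratio per mapped read of 552 with a 95% exact counting interval of 98.6 to 21850. Npc1l1, the cholesterol importer, had 0, 2.61 and 4.68 against 160, 115, 274 and 139. Mep1a, a brush border protease of the small intestinal list, was higher in colon instead, with 739, 1106 and 758 against 73.2, 121, 141 and 160. It did not stay higher with epithelial scaling. Of 23 lipid absorption genes 14 were lower and 3 higher, with a median of -1.70. Leukocyte scaling gave 5 lower and 8 higher, with a median of 0.55, and epithelial scaling 19 lower and 0 higher.

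**Figure D3:**
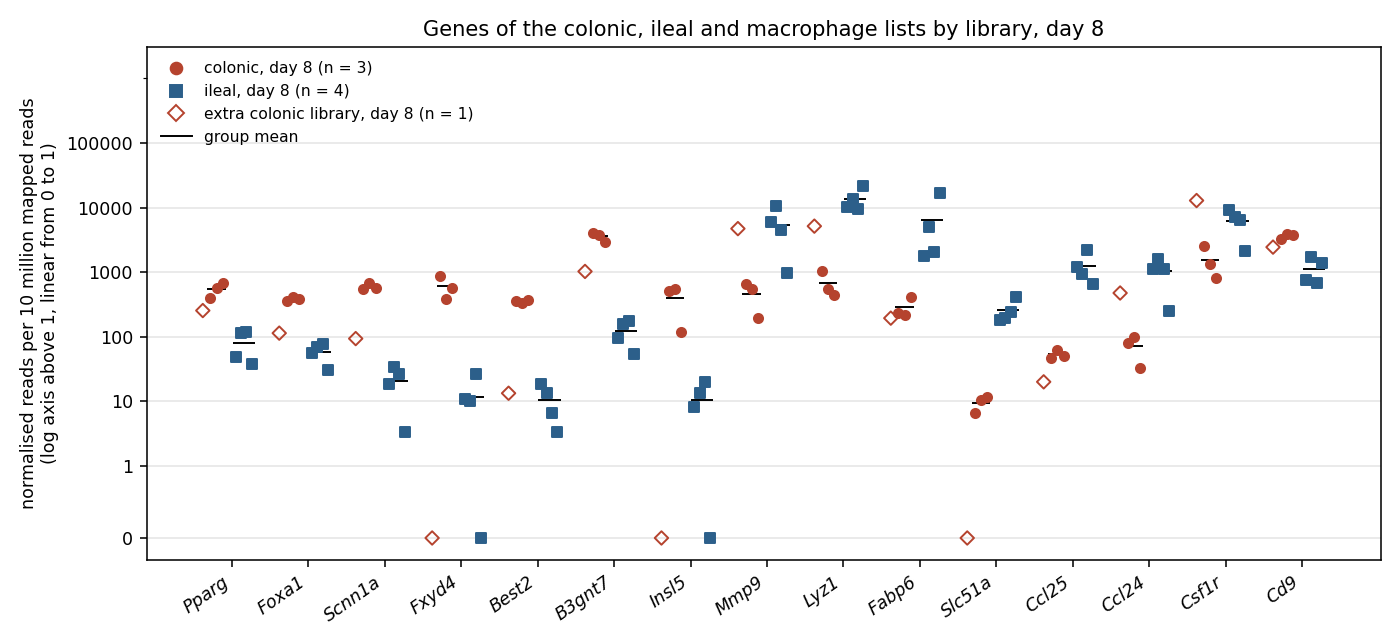
Normalised reads of 15 genes in each library of day 8 (log axis above 1, linear from 0 to 1). Circles are the 3 colonic libraries, squares the 4 ileal libraries, open diamonds the extra colonic library and bars group means. From Pparg to Insl5 each of the 3 colonic libraries lies above each ileal one, from Mmp9 to Ccl24 below, while Csf1r overlaps and Cd9 is higher in colon. The extra colonic library departs from this order for some genes, for example at 0 for Fxyd4 and Insl5, 13.4 for Best2 and 4717 for Mmp9.

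Hox genes divided by their number. Of 20 tested, 9 were higher in colon and 10 lower. All 7 with paralogue numbers 9 to 13 were higher, and of the 13 with numbers 2 to 8 there were 10 lower, 2 higher and 1 that did not pass. Hoxb13 was the most abundant, with 5194, 4081 and 5245 normalised reads in colon and 198, 371, 161 and 0 in ileum (log2 fold change 4.54 ± 0.76). Hoxd13 had 520, 371 and 572 against 43.4, 30.3, 3.35 and 0 and Hoxa10 had 280, 464 and 322 against 10.8, 27.0, 13.4 and 0. Hoxd11 and Hoxa13 each had 1 ileal read in all, which gave ratios of colon over ileum of 100.1 (95% exact counting interval 17.6 to 3986) and 60.7 (10.6 to 2430). With epithelial scaling 6 of the 7 stayed higher, and Hoxb9 did not (0.68, adjusted p = 0.212).

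Anterior members ran the other way within the b, c and d clusters. Hoxb4 had 37.2, 18.3 and 16.4 normalised reads in colon and 263, 351, 298 and 71.4 in ileum (-3.66 ± 0.51), and Hoxb5 had 6.75, 13.1 and 4.68 against 81.3, 67.4, 66.9 and 71.4. Hoxc6 had 1 colonic read, a ratio of ileum over colon of 87.7 (15.3 to 3513), and Hoxc8 had 3, a ratio of 63.8 (21.4 to 313). These last were the 2 that stayed lower with leukocyte scaling, at -4.05 and -3.85. The a cluster did not follow the split, since Hoxa3 and Hoxa7 were higher at 1.68 and 1.71 and Hoxa5 stood at 1.04 (adjusted p = 0.0788). None of these was higher with epithelial scaling. The Hoxa3 entry overlaps Hoxa4, Hoxa5 and Hoxa6 on the same strand, so that Hoxa3 and Hoxa5 may share reads. Hoxb4 was also present in grafted monocytes, at a mean of 199, whereas Hoxb13, Hoxa10 and Hoxd13 were at or below 0.94.

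**Figure D4:**
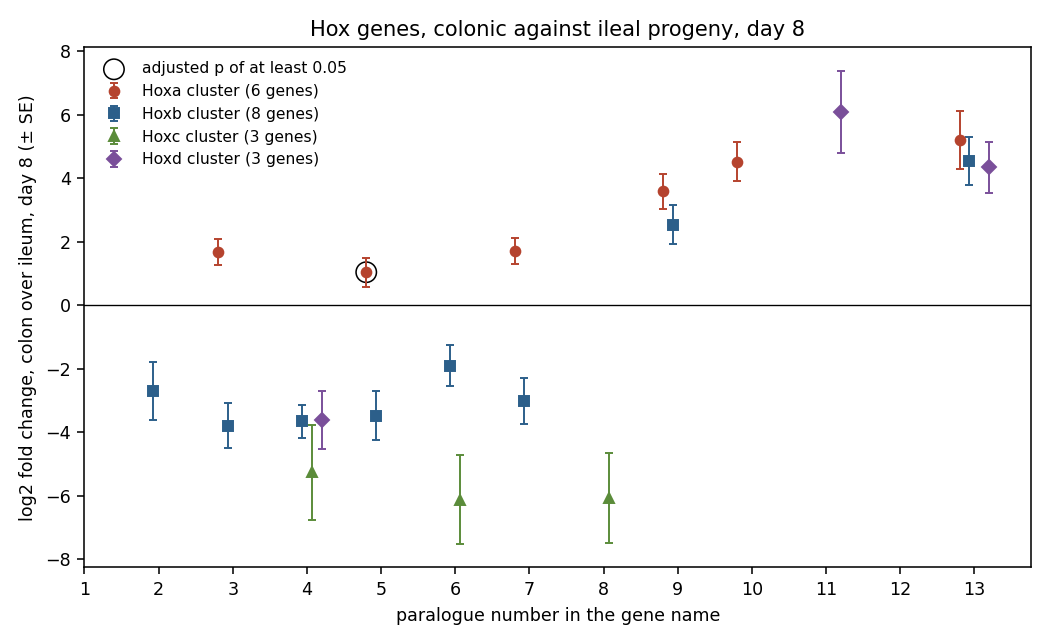
Log2 fold change of 20 Hox genes, colon over ileum, with SE bars, against the paralogue number in the gene name, with 1 symbol per cluster. A ring marks the gene that did not pass (Hoxa5). Numbers 9 to 13 are all above 0, and numbers 2 to 8 are below 0 outside the a cluster. For Hoxc4, Hoxc6, Hoxc8, Hoxd11 and Hoxa13 a segment had 1 to 3 reads, so that the plotted size depends on the fit.

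Other regional factors split likewise. Of 16 gut patterning genes 8 were higher and 7 lower, which became 9 and 2 with leukocyte scaling and 3 and 8 with epithelial scaling. Klf4, a factor of differentiated epithelium that monocytes also use, had 10170, 11070 and 14950 against 1757, 1733, 1392 and 1091 (2.74), with 4780 in the graft. Gata5, a factor of small bowel, had 0, 2.61 and 4.68 against 40.7, 57.3, 100 and 51.0. Nkx2-3, a factor of gut mesenchyme and its vessels, had 118, 141 and 105 against 1743, 1173, 947 and 1410. Osr2, a mesenchymal zinc finger gene, had 1 colonic read and 243 ileal reads, a ratio of 296 (52.7 to 11740). Cdx2, the general intestinal factor, did not pass, at 0.88 (adjusted p = 0.134). Among 24 nuclear receptors 10 were higher and 5 lower, and without colonic replicate 3 these became 6 and 2. Vdr (1.44), Nr1i2 (1.85) and Ppard (1.48) joined Pparg on the colonic side. None of the 24 was higher with epithelial scaling and 15 were lower, while with leukocyte scaling 19 were higher and none lower.

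Macrophage genes themselves were lower in colon under TMM scaling, as the library sums imply. Of 24 macrophage identity genes 17 were lower and 1, Cd9, higher. Without colonic replicate 2 the 17 became 7, and without colonic replicate 3 they became 3. Csf1r, the receptor for the macrophage growth factor, had 2529, 1331 and 815 normalised reads in colon and 9147, 7096, 6472 and 2158 in ileum, with overlap (log2 fold change -2.25 ± 0.64, edgeR adjusted p = 0.00969). Without colonic replicate 3 its adjusted p was 0.0604. C1qa, the complement component of resident macrophages, had 6213, 3027 and 1677 against 22050, 42180, 16500 and 4935 (-2.77). Scaled to the leukocyte genes, Csf1r was at 0.0049 (adjusted p = 0.994), C1qa at -0.41 (adjusted p = 0.503) and Cx3cr1, which drove the reporter of the graft, at 0.42 (adjusted p = 0.482). On that scale 7 of the 24 were higher in colon and none lower. Of all genes tested 77.1% were higher on it, with a median log2 fold change of 2.23. Adgre1, which encodes F4/80, was at 1.40 (adjusted p = 0.0191) and Cd14, the co-receptor for endotoxin, at 2.34 (adjusted p = 0.00174), though under TMM neither passed (-0.78 and -0.02). With the extra colonic library added under TMM, 1 of the 24 was higher and 0 were lower. Ptprc, which encodes CD45, then moved from -1.80 to 0.01 and Cd74, the class II chaperone, from -1.96 to 0.04.

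MHC class II genes were alike. Of 7 tested, 6 were lower and none higher under TMM, and 2 were lower without colonic replicate 2, colonic replicate 3 or ileal replicate 2. With leukocyte scaling 0 were lower, and likewise 0 with the extra colonic library added. H2-Ab1 had 18100, 9812 and 3144 normalised reads in colon against 39770, 29320, 23680 and 7433 (-1.53, adjusted p = 0.0815). Ly6c2, the monocyte marker that the labelled gate excludes, had 97.9, 117 and 104 against 648, 344, 244 and 1173, far under the 23630 of the graft (-2.92, adjusted p = 0.0126, and 0.0515 without colonic replicate 3).

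**Figure D5:**
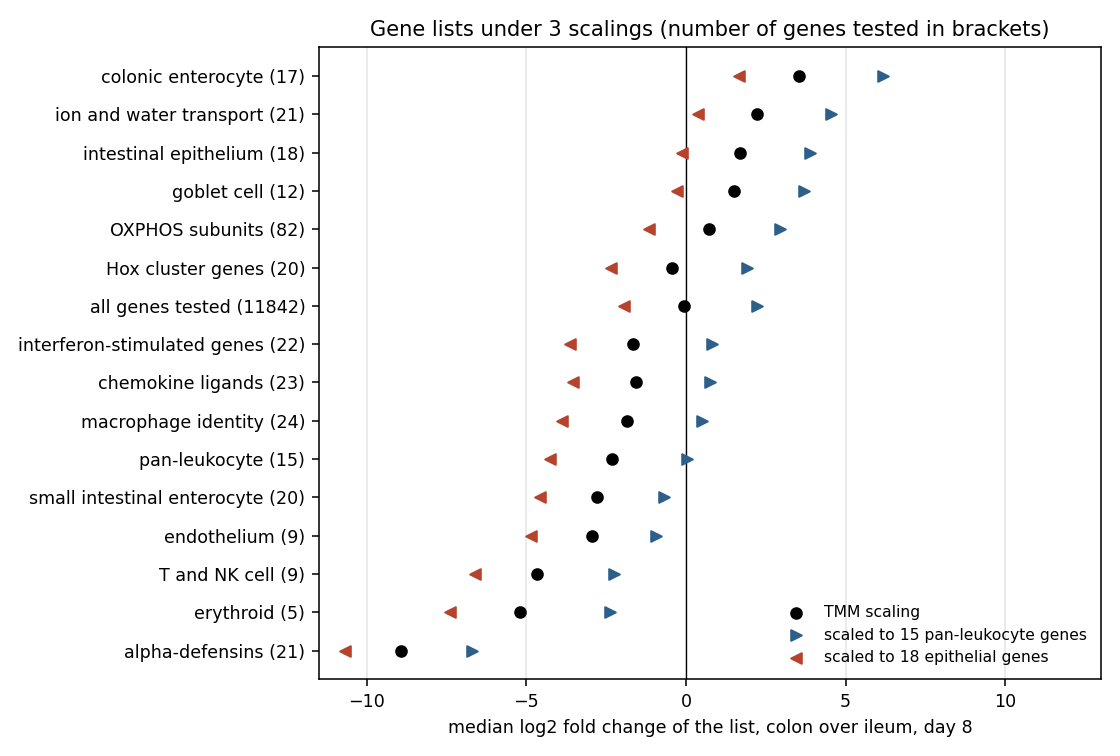
Median log2 fold change (colon over ileum, day 8) of 15 gene lists and of all genes tested, under TMM scaling (black), scaled to 15 leukocyte genes (blue) and scaled to 18 epithelial genes (red). Colonic enterocyte and ion transport lists are above 0 and the alpha-defensin, erythroid, lymphoid, endothelial and small intestinal lists below 0 under all 3, while the macrophage and interferon lists change side.

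Of 23 chemokine ligands 8 were lower and 1 higher, the higher being Cx3cl1, the ligand of CX3CR1 (253, 381 and 315 against 70.5, 84.3, 40.2 and 68.0). The 8 became 5 without colonic replicate 2, without colonic replicate 3 or without ileal replicate 2, and 14 without ileal replicate 4. With leukocyte scaling 4 of the 23 were lower and 6 higher, where 77.1% of all genes were higher. Per epithelial read 20 were lower and 0 higher, where 81.3% of all genes were lower, so Cx3cl1 did not stay higher. Ccl24, an eosinophil attractant of tissue macrophages, had 81.0, 99.2 and 32.8 normalised reads in colon against 1111, 1625, 1138 and 255 (-4.13) and stayed lower with leukocyte scaling at -1.66 (adjusted p = 0.0213). The extra colonic library had 476. Ccl25, the small bowel epithelial ligand of CCR9, had 47.3, 62.6 and 50.3 against 1212, 944, 2189 and 646 (-4.80 ± 0.69) and Ccr9 itself 0, 2.61 and 22.2 against 450, 185, 107 and 235. Of 17 matrix metalloproteinase and TIMP genes 10 were lower and 2 higher, with a median of -1.90, and with leukocyte scaling 4 were lower and 4 higher, with a median of 0.70. Mmp10, stromelysin 2, had 2 colonic reads and 195 ileal reads, a ratio of 119 (32.45 to 988). Mmp15, a membrane-bound member, was higher in colon at 2.18. It did not stay higher with epithelial scaling, which gave 14 of the 17 lower and 0 higher.

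Among 22 interferon-stimulated genes 17 were lower and 1, Ifi27l2b, higher, with 10 lower without colonic replicate 3 or without ileal replicate 1. Leukocyte scaling gave 0 lower and 4 higher, and epithelial scaling 21 lower and 0 higher. Of all genes, 77.1% were higher with the first scaling and 81.3% lower with the second. Of 11 genes of the IL-10 axis 4 were lower (2 without colonic replicate 3) and 1 higher. These became 0 lower and 6 higher with leukocyte scaling, and 10 lower and 0 higher with epithelial scaling. Il10ra, the receptor chain that macrophages need to stay quiet, had 165, 115 and 116 against 445, 1463, 391 and 245 (-2.48). Per leukocyte read it was at 0.03. Il22ra1, the epithelial receptor for IL-22, was higher at 1.40, but did not stay so with epithelial scaling. Il18, made by epithelium and macrophages, had 810, 1041 and 1857 against 228, 202, 201 and 20.4 (2.71). It did not stay higher with epithelial scaling. Under TMM Il1b and Tnf did not pass, at -1.43 (adjusted p = 0.0691) and -0.38 (adjusted p = 0.657). Among 20 immediate early and dissociation genes, which collagenase can induce, none was higher in colon and 2 were lower under TMM. The shares over all genes tested were 16.7% and 18.3%. With leukocyte scaling 17 were higher and 0 lower, and with epithelial scaling 0 were higher and 18 lower, so the direction depended on the reference. Fos had 13400, 8385 and 6484 against 7547, 3728, 5937 and 4813 (0.45, adjusted p = 0.307).

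Lymphoid, endothelial and erythroid markers were higher in the ileal libraries, whereas epithelial markers were higher in the colonic ones. Of 9 fibroblast genes 2 were lower in colon and none higher, with overlapping sums. Over all genes tested 18.3% were lower and 16.7% higher. The 13 T and NK cell genes summed to 40.5, 49.6 and 69.1 normalised reads in colon and to 1204, 563, 492 and 568 in ileum, and all 9 tested but 1 were lower in colon. The 9 B and plasma cell genes summed to 1749, 1250 and 5316 against 74170, 19940, 16950 and 90320, mostly Jchain, the joining chain of IgA. All 7 of them were lower in colon, as were all 9 endothelial genes, such as Kdr, the VEGF receptor (43.9, 83.5 and 24.6 against 567, 1028, 301 and 489), and all 5 tested of haem and haemoglobin. With leukocyte scaling 3 of the T and NK cell genes, 5 of the B and plasma cell genes, 4 erythroid genes and 0 endothelial genes remained lower. Among the 7 listed erythroid entries 4 overlap another gene on the same strand, so that they may share reads and not count separately.

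The contrast at day 8 was set beside those of days 4 and 12, which used other libraries and the same test. At day 4, 62 genes were higher in colon (0.524%) and 315 lower (2.66%, or 3.18% in either direction), and at day 12, 1808 were higher (15.3%) and 2038 lower (17.2%, or 32.5% in either direction). The day 4 counts depended on the fit. They were 508 higher and 757 lower with experiment as a block, 274 and 806 with DESeq2, 43 and 121 with scaling to mapped totals, and 2 and 5 with the extra colonic library of day 8 in the shared estimate of spread. Of the 4 ileal libraries of day 4, 2 came from experiment 1, for which no colonic library of that day was analysed here. Of the 1981 higher at day 8, 1377 were also called at day 12, which is 69.5% of the first list and 76.2% of the second. Of the 2163 lower, 1568 were shared, 72.5% and 76.9%. The 15 leading genes of each direction all passed at day 12 too, and 3 of each at day 4.

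The change of the contrast between days was tested directly. For day 8 against day 4 edgeR found 0 genes past the threshold, with 1469 at an unadjusted p under 0.05 (12.4%), and DESeq2 called 138. For day 8 against day 12 both tools called 0, with 496 (4.19%) and 601 at an unadjusted p under 0.05. Among the genes nearest to the threshold in the first test were Tom1l1, Snhg12, Krt20 and Emp1, of which Krt20 is a keratin of mature surface epithelium. Krt20 had a colon over ileum log2 fold change of 2.44 at day 8 and of -0.59 at day 4, a difference of 3.02 ± 0.60 (adjusted p = 0.144), and Emp1 went from -1.07 to 2.71, a difference of 3.78 ± 0.78. Pparg was at 0.12 at day 4 (colonic mean 417 and ileal mean 356 normalised reads), at 2.56 at day 8 and at 2.05 at day 12, and Foxa1 at 0.55, 2.43 and 2.04. The epithelial sum averaged 182200 in colon and 95810 in ileum at day 4 and 185800 and 42650 at day 8. The paper reports that some of the earliest ileal samples grouped with the colonic ones. The ileal means of day 4 given here average all ileal libraries of that day, without values per library. Whether colon-like libraries among them account for the change from day 4 to day 8 was not tested. Mmp9 differed by -2.85 at day 4 (adjusted p = 0.0617) and by -2.62 at day 12 (adjusted p = 0.011).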

How the data were processed

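Per the labels and the study's methods, the authors sequenced 3′ ends with a derivative of MARS-seq, aligned reads to mm9 with HISAT 0.1.6, kept unique reads and deposited raw counts of reads per gene from HOMER (exons, sense strand). The HOMER version and any collapse of molecular barcodes are not given in the sources used here. Counts were scaled to 10000000 mapped reads for display. Genes with at least 50 normalised reads in at least 3 of 25 libraries were tested (11842 of 24411) with edgeR 4.0.16 in R 4.3.3 (quasi-likelihood test, TMM scaling, 7 groups, Benjamini-Hochberg adjustment, threshold 0.05). Genes were named as follows: Pparg, Foxa1 and Mmp9, the 15 largest log2 fold changes in each direction among genes past the threshold with a mean of at least 200 in the higher segment, no overlap of libraries and the same sign in experiments 2 and 3, members of fixed lists, and the 5 strongest changes between days in each direction, of which examples are given. Members and lists were chosen with earlier results of these data known. Scaling to leukocyte or epithelial genes was added after the data were seen. Alternatives covered normalization, filters, DESeq2 1.42.0, limma 3.58.1, blocks, experiments and each library left out. Few-read ratios carry exact 95% intervals, which cover counting error only. In counts simulated for 11842 genes with 200 changed, the test recovered 29.9% of 2-fold, 95.5% of 4-fold and 100% of 8-fold changes. The simulation took each gene's spread from the trend, changed only genes above a minimum level and kept all others equal between segments. Recovery in the data, where far more genes differed, may therefore be lower. Results for some genes are not reported here.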

Additional observations from a re-analysis of the deposited data

Results flagged for a closer look

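Among values over the 4 ileal libraries, 14 of 226 had a highest or lowest library far from the others by Dixon's criterion, which chance alone gives in about 1 of 20. Ileal replicate 4 was lowest for Sycn (40.78 normalised reads), Il18 (20.39), Tnf (57.78) and Timd4 (6.797), and highest for Pyy (217.5) and Hoxb7 (88.37). Ileal replicate 1 was highest for Cxcl14 (414.8), for the summed T and NK cell genes (1204) and for Hoxd11 and Hoxa13 (2.711 each, which is 1 read). Ileal replicate 2 was highest for Reg3g (37260) and Il10ra (1463) and lowest for the summed lipid absorption genes (9061). Ileal replicate 3 was highest for Fut2 (23.43).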

How the results depend on the processing

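The number of genes higher in colon stayed within 1.5 times of 1981 except with leukocyte scaling (9125), with epithelial scaling (184) and within experiment 2 (0). The number lower, 2163, was 1428 with scaling to mapped totals, 529 with an equal-variance test per gene, 1387 with the extra colonic library added, 127 and 9623 with leukocyte and epithelial scaling, 0 within experiment 2 and 1331 within experiment 3. Without 1 library it ran from 1223 (without colonic replicate 3) to 2165, and the number higher from 1430 to 1909. Within experiment 2 edgeR gave 1.99 for Pparg (adjusted p = 0.1541), 2.143 for Foxa1 (0.08294) and -3.286 for Mmp9 (0.2619). Mmp9 was -3.13 in the equal-variance test (adjusted p = 0.07731) and -1.714 with the extra library (0.17). With that library Ptprc was 0.01354 and Cd74 0.03737, both reversed. DESeq2 called 138 genes for the change from day 4 to day 8, where edgeR called 0. Of 177 genes examined 162 passed, of which 136 kept direction and call without any 1 library and 26 lost the call at least once. The cause was not tested. Replicate numbers within experiments did not mark a stated pairing, and correlations of their deviations were 0.2795, 0.0549 and 0.1773, and not every library correlated best with its own number. With the replicate block 1717 genes were higher and 1895 lower, with log2 fold changes of 2.817 for Pparg, 2.595 for Foxa1 and -3.545 for Mmp9.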
